A study of Arabidopsis thaliana with 14 samples.

Results

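Methylation of the endosperm and the embryo of Ler seeds was compared over the windows covered in both tissues. The series holds bisulfite sequencing libraries of dissected Arabidopsis thaliana seeds at 6 days after pollination, from selfed Col, Ler and Cvi plants and from crosses with Cvi. The tissues described here are the endosperm and the embryo of the cross Ler x Ler, in which Ler is both mother and father, with no other allele or treatment in either. Each tissue is 1 of 14 libraries, made from DNA pooled over the seeds of many siliques, so neither has a replicate and every interval below covers counting error only. The windows are 300 nt wide and start every 200 nt. A window was kept when both libraries held 15 or more calls, that is reads of a cytosine in the given context, or 50 or more in CHH. This left 220167 CG windows of the 584983 present in any library of the series, 246217 of 586923 in CHG and 341661 of 590745 in CHH. The 2 libraries could not be checked against expressed markers, since methylation alone was measured.

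Cytosine methylation in plants is sorted by the bases that follow the cytosine, as CG, CHG or CHH (H stands for A, C or T). CG methylation is copied at replication by MET1 with the VIM proteins, CHG methylation by CMT3 together with histone methylation, and CHH methylation is set again by RNA-directed DNA methylation and by CMT2. The bodies of many transcribed genes carry CG methylation alone, while transposons and repeats carry all contexts. The endosperm feeds the embryo and receives more maternal than paternal genomes. The DNA glycosylase DEMETER removes methylcytosine in the central cell, the female gamete from which the endosperm arises, and the maternal alleles of several imprinted genes are known to lack methylation there. A level in a pooled tissue is a share of calls, and it cannot be told apart whether all alleles are partly methylated or part of the alleles fully so.

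To show the kind of sequence behind the values, windows upstream of or within 4 genes are printed, on the plus strand of TAIR10.1 with CG sites in capitals. HDG3 and HDG9 encode imprinted homeodomain leucine zipper (HD-ZIP IV) factors. The windows of RCD1, a regulator of stress responses, and TOPP3, a protein phosphatase, had among the deepest losses upstream of a gene.
HDG3, chr2:13740001-13740300: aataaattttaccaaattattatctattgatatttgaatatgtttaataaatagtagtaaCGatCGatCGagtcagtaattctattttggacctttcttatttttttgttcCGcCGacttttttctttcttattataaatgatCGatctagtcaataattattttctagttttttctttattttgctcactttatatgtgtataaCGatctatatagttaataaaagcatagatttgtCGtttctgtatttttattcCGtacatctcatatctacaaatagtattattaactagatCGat
HDG9, chr5:5707401-5707700: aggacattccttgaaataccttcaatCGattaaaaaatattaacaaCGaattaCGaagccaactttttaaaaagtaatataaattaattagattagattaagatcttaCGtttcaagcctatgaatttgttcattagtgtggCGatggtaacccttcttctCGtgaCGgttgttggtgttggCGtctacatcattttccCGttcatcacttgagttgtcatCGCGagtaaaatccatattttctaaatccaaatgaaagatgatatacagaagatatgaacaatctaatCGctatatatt
RCD1, chr1:11611401-11611700: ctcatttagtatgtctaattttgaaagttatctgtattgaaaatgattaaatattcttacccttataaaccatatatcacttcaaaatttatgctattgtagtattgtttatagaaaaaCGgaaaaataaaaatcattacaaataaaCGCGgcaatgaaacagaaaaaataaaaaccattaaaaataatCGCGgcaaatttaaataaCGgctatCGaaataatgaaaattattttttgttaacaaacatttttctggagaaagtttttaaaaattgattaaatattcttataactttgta
TOPP3, chr1:23761201-23761500: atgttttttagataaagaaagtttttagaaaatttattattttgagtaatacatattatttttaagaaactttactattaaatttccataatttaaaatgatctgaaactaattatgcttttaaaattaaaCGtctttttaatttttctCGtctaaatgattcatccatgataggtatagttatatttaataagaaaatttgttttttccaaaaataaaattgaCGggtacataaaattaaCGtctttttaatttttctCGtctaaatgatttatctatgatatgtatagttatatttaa
In the HDG3 window, which holds 10 CG sites and lies 578 nt upstream of the gene, 29 of 113 CG calls were methylated in endosperm, 25.7%, and 143 of 164 in embryo, 87.2%. The HDG9 window, with 12 CG sites in a coding exon and an intron, had 43.6% in endosperm and 95.9% in embryo. The RCD1 window has 7 CG sites and lies 191 nt upstream of the gene, and 5 of 66 calls were methylated in endosperm, against 64 of 67 in embryo. The TOPP3 window has 5 CG sites, with 21.7% methylated in endosperm and 98.4% in embryo. All 4 windows are poor in G and C, with 24.3% in HDG3, 32.3% in HDG9, 22.3% in RCD1 and 18.7% in TOPP3.

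Depth differed between the libraries. The endosperm library held 8763800 nuclear CG calls and the embryo library 35149159, and the kept CG windows had a median of 27 calls in endosperm and 76 in embryo. In CHG the medians were 27 and 82, and in CHH they were 121 and 349. Chloroplast DNA, which carries no methylation and so measures failed conversion, read as methylated in 0.176% of CG calls in endosperm (Wilson 95% interval 0.165 to 0.187) and 0.0432% in embryo (0.0381 to 0.0490). The CHH values were 0.217% in endosperm and 0.150% in embryo.

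The endosperm was less methylated than the embryo in each context. Over the kept windows, mean CG methylation was 16.5% in endosperm and 21.6% in embryo, a difference of -5.09 points (chromosomes -6.44 to -4.39). Mean CHG methylation was 4.96% in endosperm and 8.07% in embryo, a difference of -3.11 points (-4.15 to -2.35). Mean CHH methylation was 1.63% in endosperm and 2.16% in embryo, a difference of -0.533 points (-0.607 to -0.473). Relative to the embryo these are losses of 23.5% in CG, 38.5% in CHG and 24.6% in CHH, the largest share in CHG. Counting error on the mean CG difference was 0.0218 points either way, taking windows as independent. Overlapping windows share calls, so this interval is too narrow. With 1 library a tissue no test over replicates exists.

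Windows were next called one by one, at a Fisher's exact adjusted p under 0.01 when the tissues also lay 35 points or more apart (10 or more for CHH). In CG, 12636 of 219368 windows tested were lower in endosperm (5.76%) and 548 were higher (0.250%). In CHG, 4535 of 245607 were lower (1.85%) and 8 were higher (0.00326%). In CHH, 6944 of 341661 were lower (2.03%) and 774 were higher (0.227%). A test on the calls of 2 libraries compares those libraries, not the tissues at large.

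The windows called lower in CG had lost much but seldom all of their methylation. Their median was 35.1% in endosperm (quartiles 24.0 and 45) and 90.9% in embryo (83.7 and 94.7). In 689 of the 12636 (5.45%) no endosperm call was methylated, and 7132 (56.4%) lay between 20 and 45%. The CHG windows called lower had a median of 16.2% in endosperm and 66.7% in embryo. The CHH windows called lower, at the smaller limit of 10 points, had a median of 2.94% in endosperm and 22.1% in embryo. The median difference of the called windows was -51.6 points in CG, -46.6 in CHG and -18.0 in CHH. These levels are descriptions, since the windows were called on them.

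As called here, losses were short, but a window not kept ends a region, so true lengths may be longer. Of the 526752 CG windows present in either Ler library, 220167 were kept. Touching or overlapping CG windows called lower formed 7876 regions, of which 4735 were a single window and 144 reached 1000 nt. The longest, of 1900 nt each, were on chromosome 1 over the pseudogene AT1G36010, on chromosome 1 over the non-coding RNA gene AT1G08253, and on chromosome 3 outside annotated genes. The CHH windows called lower formed 4373 regions of up to 1700 nt, and the CHG windows 3368 regions of up to 1500 nt. Windows with losses were rich in A and T. The median GC content was 29.0% in CG windows called lower, against 34.7% in all CG windows tested, and 25.7% against 34.0% in CHH. Windows outside genes were 70.0% of the CG windows called lower and 35.3% of those tested. GC content was not compared within a feature. The called CG windows held a median of 12 reference CG cytosines, counting both strands, against 14 in all.

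**Figure D1:**
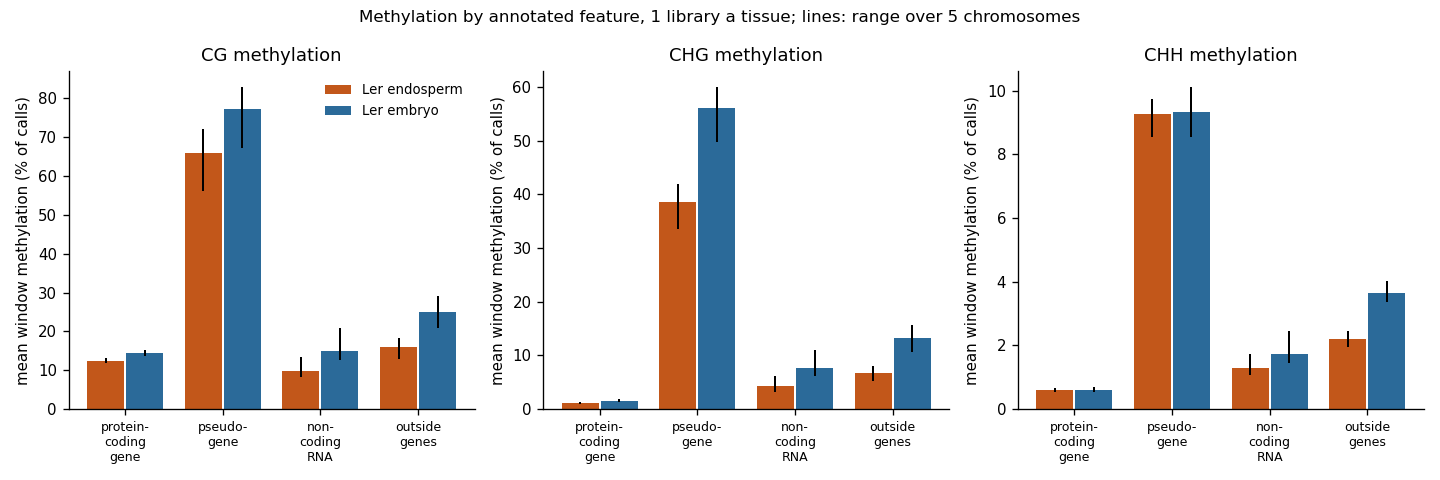
Mean methylation of windows (percent of calls) in Ler endosperm (orange) and Ler embryo (blue) by annotated feature, for CG, CHG and CHH. Bars are means over windows of 1 library and lines the range over 5 chromosomes. CG methylation outside genes is 15.9% in endosperm and 25% in embryo, while CHH methylation in pseudogenes is 9.28% and 9.34%.

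Relative to the embryo level, the CG difference was widest outside genes, at -36.6%, and in points it was widest in pseudogenes. In windows outside annotated genes mean CG methylation was 15.9% in endosperm and 25% in embryo, a difference of -9.16 points (chromosomes -11.1 to -7.85). In protein-coding gene bodies it was 12.4% in endosperm and 14.4% in embryo, a difference of -1.98 points (-2.28 to -1.81). Windows outside genes were 35.3% of the CG windows tested and held 70.0% of those called lower, and 11.4% of them were called. Gene bodies were 57.1% of the windows tested and held 21.1% of those called lower, and 2.13% of them were called. The ranges of the difference over chromosomes do not overlap between the 2 features.

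Pseudogenes, here all genes that RefSeq labels so with any transposon genes among them, stood at a high level in both tissues. They had 66.0% CG methylation in endosperm and 77.2% in embryo, a difference of -11.2 points (-12.2 to -10.8). In CHG they had 38.5% in endosperm and 56.0% in embryo, the widest CHG difference among the 4 features at -17.6 points (-18.4 to -16.2). In CHH their level was 9.28% in endosperm and 9.34% in embryo, and the sign of the difference varied among chromosomes (-0.368 to 0.173). Of the pseudogene windows tested in CHH, 1.57% were called lower and 1.12% higher. Outside genes CHH methylation was 2.19% in endosperm and 3.66% in embryo, and those windows held 83.9% of all CHH windows called lower and 34.9% of those tested. In gene bodies CHH methylation was 0.595% in endosperm and 0.612% in embryo, and the sign varied among chromosomes (-0.0515 to 0.0136). Non-coding RNA genes lost 34.0% of their embryo level in CG and 44.6% in CHG.

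**Figure D2:**
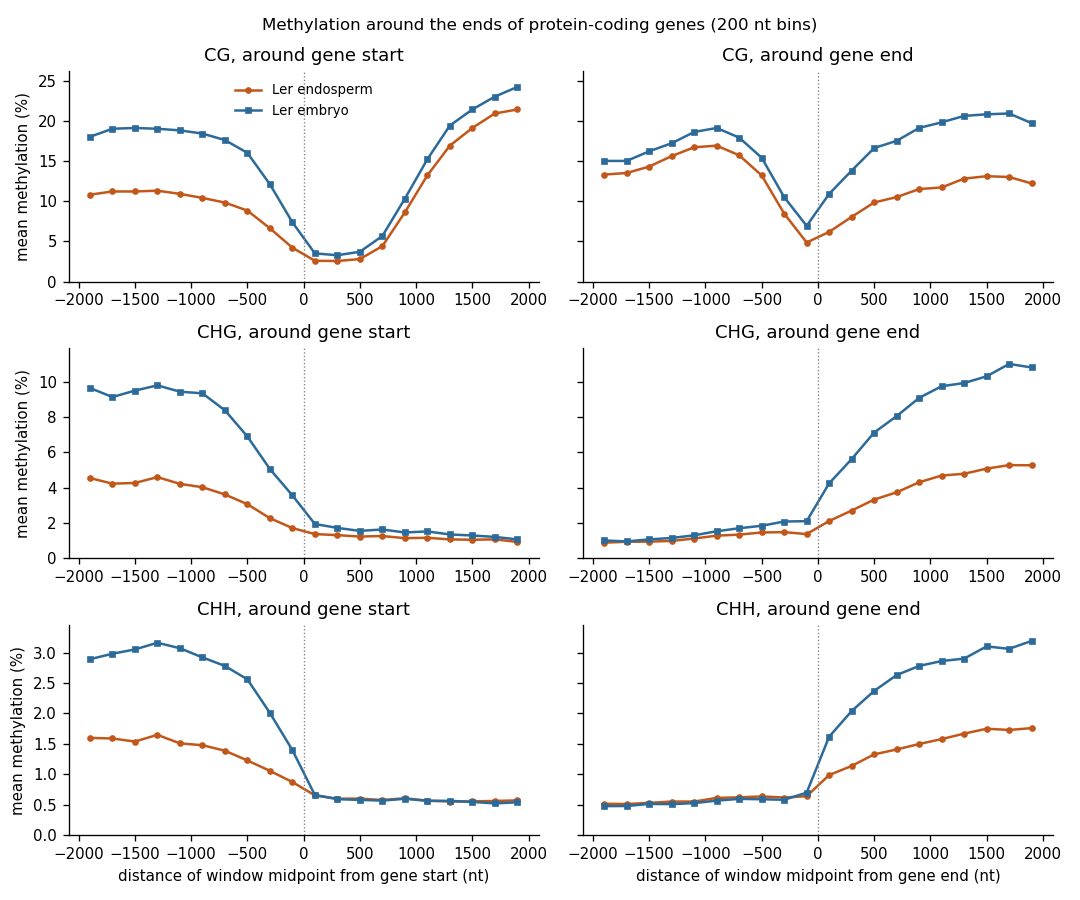
Mean methylation (percent) in 200 nt bins of distance from the start (left) and end (right) of protein-coding genes, for Ler endosperm (orange circles) and Ler embryo (blue squares). Bins inside the gene hold windows with their midpoint in that gene, and bins outside hold windows that overlap no protein-coding gene. The tissues are close within genes and part outside them, with 10.4% in endosperm and 18.4% in embryo in the CG bin that begins 1000 nt upstream.

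The difference opened at the borders of genes. In the bin from 0 to 200 nt inside the gene start, CG methylation was 2.58% in endosperm and 3.50% in embryo, and 1.15% of windows were called lower. Between 400 and 200 nt upstream it was 6.62% in endosperm and 12.1% in embryo, with 7.00% called. In the bin that begins 1000 nt upstream it was 10.4% in endosperm and 18.4% in embryo, with 10.6% called, and beyond that point the difference remained between -7.95 and -7.18 points out to 2000 nt. Downstream of the gene end it was similar, with 11.7% in endosperm and 19.8% in embryo in the bin that begins 1000 nt downstream. CHH methylation in the bin that begins 1200 nt upstream was 1.51% in endosperm and 3.07% in embryo, and inside the gene start it was 0.658% and 0.663%.

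Of 24930 protein-coding genes with a tested CG window in the 1 kb upstream, 2515 had at least 1 window called lower and 76 (0.305%) had one called higher. A loss was found in the 1 kb downstream of 1993 of 24152 genes and in the body of 1959 of 25540. In CHH, 6.52% of genes had a loss in the 1 kb upstream, and in CHG 3.15% had one.

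**Figure D3:**
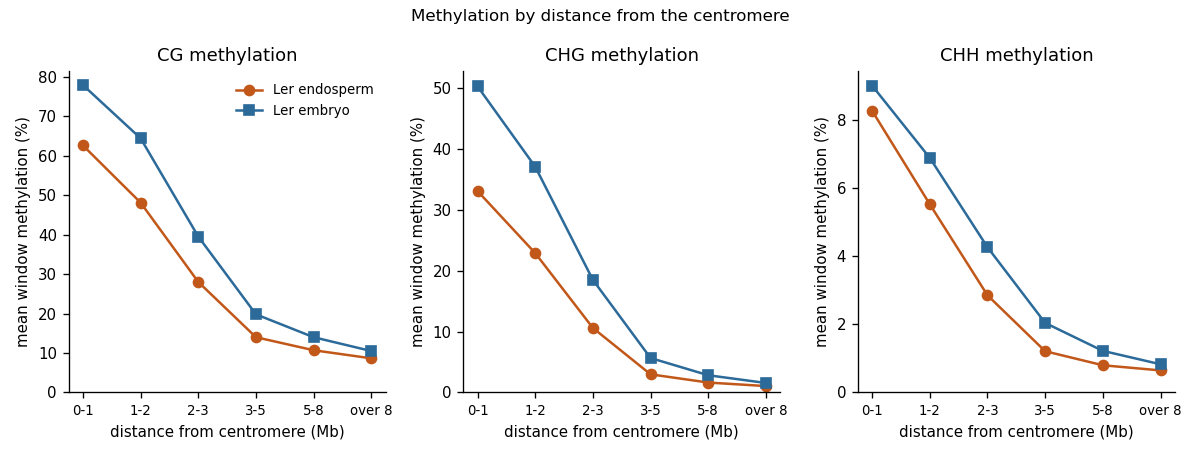
Mean methylation of windows (percent) in Ler endosperm (orange circles) and Ler embryo (blue squares) by distance from the centromere in Mb. Levels fall away from the centromere in both tissues, and the CG difference is -15.3 points within 1 Mb and -1.88 points beyond 8 Mb.

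In CG and CHG the difference in points was largest within 2 Mb of centromeres. Within 1 Mb CG methylation was 62.6% in endosperm and 77.9% in embryo, and at 1 to 2 Mb it was 48.1% and 64.4%. Beyond 8 Mb it was 8.65% in endosperm and 10.5% in embryo. The share of the embryo level that was lost followed another order. It was 19.6% within 1 Mb, 29.5% at 3 to 5 Mb and 17.8% beyond 8 Mb. In CHH the lost share was 8.22% within 1 Mb, where the means were 8.26% in endosperm and 9.0% in embryo, and 41.0% at 3 to 5 Mb, where they were 1.21% and 2.04%. In points the CHH difference was widest at 2 to 3 Mb, at -1.42. The windows within 1 Mb held a larger share of CHH windows called higher, 1.18% within 1 Mb against 0.0936% beyond 8 Mb.

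To group windows by their kind of methylation without using either Ler library, their levels in the Col x Col embryo were taken. Windows with at least 50% CG methylation but under 5% CHG and 3% CHH, the pattern known from gene bodies, had 54.3% CG methylation in Ler endosperm and 59.7% in Ler embryo, a difference of -5.34 points (chromosomes -6.03 to -5.02, 13616 windows). Windows with at least 50% CG, 20% CHG and 10% CHH have the pattern known from transposons and repeats. They had 64.6% in endosperm and 86.4% in embryo, a difference of -21.8 points (-23.7 to -20.1, 19005 windows). Another group of 770 windows, with the same CG and CHG levels but under 3% CHH, had 47.1% in endosperm and 71.7% in embryo. Windows called lower were 5.54% of those tested in the CG-only group and 24.1% in the group methylated in all contexts. In the group low in CHH they were 30.7%. Of windows with under 10% CG methylation in Col, 0.604% were called lower. The Ler embryo mean of those windows was 2.81%, and 93.2% of them lay under 5% there. Most of them could not fall far enough to be called, so their share is no baseline for the other groups.

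**Figure D4:**
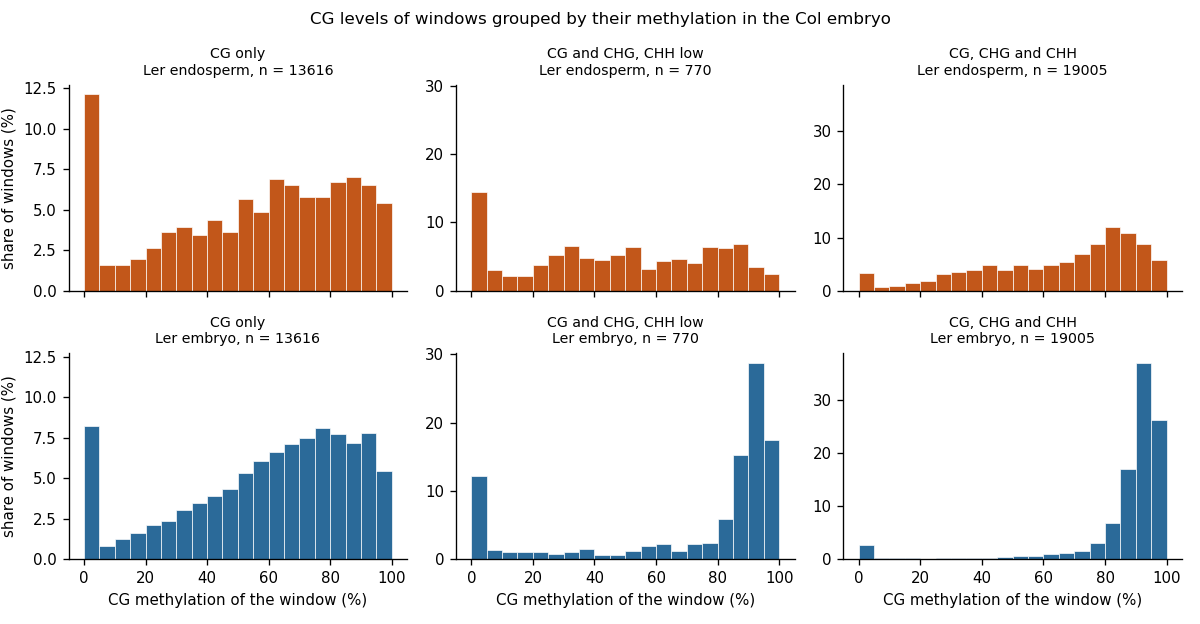
Share of windows (percent) in bins of 5 points of CG methylation, in Ler endosperm (upper row, orange) and Ler embryo (lower row, blue), for 3 groups of windows defined by the Col embryo. In the group methylated in all contexts, 37.4% of windows are at 80% or more in endosperm and 86.9% in embryo, and 17.5% are between 20 and 45% in endosperm.

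The groups also differed in the shape of the distribution. In windows methylated in all contexts the median was 72.2% in endosperm (quartiles 46.2 and 85) and 92.0% in embryo (87.2 and 95.1). Between 20 and 45% lay 17.5% of them in endosperm and 1.23% in embryo, while those under 10% were 4.06% in endosperm and 3.08% in embryo. In CG-only windows the median was 60.0% in endosperm and 65.6% in embryo. CHG methylation in windows methylated in all contexts was 35.6% in endosperm and 58.2% in embryo, and CHH methylation was 9.80% and 14.1%. On the arms, over 3 Mb from a centromere, the CHH means of that group were 8.03% in endosperm and 17.2% in embryo. In CG-only windows CHG methylation was 0.802% in endosperm and 0.585% in embryo, a difference of 0.218 points, and the chloroplast CHG values were 0.179% in endosperm and 0.0504% in embryo. The part of that background in the difference was not tested.

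Losses in the 3 contexts often shared a window. Of 134922 windows tested in each context, 7526 were called lower in CG, 2650 in CHG and 2594 in CHH. Of the CHH windows called lower, 59.3% were also called lower in CG, against 5.58% of all the windows. Of the CHG windows called lower, 56.3% were. The median embryo level of all CG windows tested was 0%, so many could not fall by 35 points. These shares and the 5.58% therefore do not compare like with like. In the other direction 20.4% of CG windows called lower were called in CHH and 19.8% in CHG. At the windows called lower in CHH, CG methylation averaged 44.6% in endosperm and 85.1% in embryo. The contexts were read from the same molecules and so share depth and coverage.

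CG gains lay mostly in gene bodies. A window near full methylation in embryo could not rise by 35 points, and windows methylated in all contexts had an embryo median of 92.0%. Of the 548 CG windows called higher in endosperm, 516 (94.2%) were in protein-coding gene bodies, against 57.1% of the windows tested. Outside genes were 24 (4.38%), against 35.3%. The 548 windows had medians of 84.0% in endosperm and 29.9% in embryo, and their median depth was 21 calls in endosperm and 66 in embryo. In the 302 tested in all contexts, CHG methylation averaged 2.31% in endosperm and 1.58% in embryo, and CHH methylation 0.812% and 0.549%. With the embryo thinned to the endosperm depth 254 were called, and with at least 30 calls in both libraries 77. In the Col x Col embryo the windows called higher averaged 41.2% (533 with calls), and in the Cvi x Ler endosperm, with Cvi as mother and Ler as father, 23.8% (371 with calls). The 774 CHH gains lay outside genes in 48.1%, against 34.9% of the windows tested, and in pseudogenes in 26.5%, against 5.35%. At the 293 CHH gains tested in all contexts, CG methylation was 62.4% in endosperm and 68.6% in embryo, and CHG methylation 36.4% and 42.1%.

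The same windows were then looked up in the selfed Cvi libraries, which share no library with the Ler pair. Of the 12636 CG windows called lower in Ler endosperm, 6472 had enough calls in Cvi, and there they averaged 26.6% in Cvi endosperm and 65.3% in Cvi embryo. Of these, 3754 (58.0%) were also called lower in Cvi, against 7.35% of the 108337 windows compared. All the windows compared averaged 14.9% in Cvi embryo, so many of them could not fall by 35 points. The 2 shares therefore do not compare like with like. Of the 7958 windows called lower in Cvi, 47.2% were called lower in Ler. For CHH the shares were 51.4% of Ler losses and 35.2% of Cvi losses, and for CHG 27.8% and 26.9%. Over all windows compared, 3.08% were called lower in Cvi in CHH and 1.85% in CHG, with the same limit of low embryo levels. Of 216 CG gains of Ler endosperm with calls in Cvi, 2 were also called higher there (0.926%, against 0.0637% of all windows compared) and 15 were called lower (6.94%, against 7.35% of all). The difference between the tissue contrasts of the 2 strains was tested at each CG window with a Wald test of log odds ratios. The difference, endosperm minus embryo, was lower in Ler at 35 windows and higher in Ler at 125. These passed at an adjusted p under 0.01 with the contrasts 35 points or more apart. Where a strain has few or no methylated calls in both tissues, the test has little power. Of the windows not called, 80.6% had under 10% in Cvi embryo, so they are not shown to be alike in the 2 strains. In the Cvi x Ler endosperm the CG losses of Ler averaged 40.6% over 8830 windows.

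The genes named next come from lists of seed and methylation genes, each at the CG window with the smallest Fisher p in the gene or within 2 kb, so the values are chosen for their difference. Over all protein-coding genes, 7142 of 27125 (26.3%) had at least 1 CG window called lower in that span. Of the same 27125 genes, 942 (3.47%) had at least 1 called higher. In CHG 8.42% of genes with a tested window had a loss in that span. In CHH 15.1% had a loss and 1.83% a gain. The median of the mean CG difference over the 27125 genes was -0.973 points. All 4 HD-ZIP IV genes on the list, FWA, HDG3, HDG8 and HDG9, had a window called lower (list median -7.32 points). Other members of that family were not on the list. FWA, whose repeats near the start are known to be methylated outside the endosperm, had 30.2% in endosperm (53 calls, Wilson 95% interval 19.5 to 43.5) and 96.4% in embryo (83 calls, 89.9 to 98.8) in an untranslated exon and intron at chr4:13038201-13038500, with an adjusted p of 1.12e-14 by Fisher's exact test. At the HDG3 window printed above the difference was -61.5 points (Fisher's exact adjusted p = 1.70e-22), and CHH methylation there was 4.78% in endosperm and 15.0% in embryo. HDG3 had 0% in both Cvi tissues, with 139 calls in endosperm and 76 in embryo, and 35.6% in Cvi x Ler endosperm. HDG3 was not alone in this, since both Cvi tissues also had 0% at HDG9 and AT3G14205, among others. At FIS2 the Cvi tissues had 28.6% in endosperm (168 calls) and 100% in embryo (35 calls). HDG8 had 40.0% in endosperm and 89.6% in embryo in an intron, a call lost when the embryo calls were thinned to the endosperm total, where the difference was -48.0 points against -49.6 with all calls. HDG9 had 7 of 16 CG windows and 7 of 35 CHH windows called lower, the most of the 4.

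**Figure D5:**
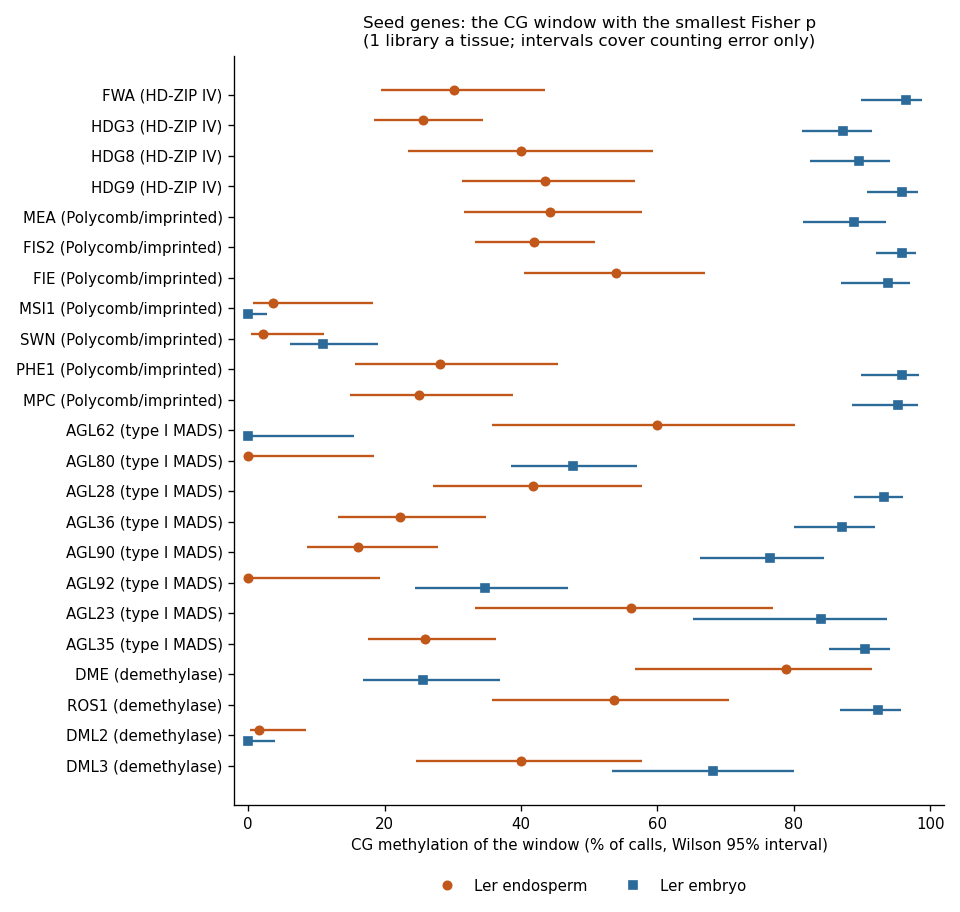
CG methylation (percent of calls) of 1 window for each gene in Ler endosperm (orange circles, upper of each pair) and Ler embryo (blue squares), with Wilson 95% intervals that cover counting error only. FWA is at 30.2% in endosperm and 96.4% in embryo, while DME and AGL62 are higher in endosperm.

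Among 7 Polycomb and classic imprinted genes, 5 had a CG window called lower (list median -12.3 points). MEA, FIS2 and FIE belong to the complex that sets H3K27 methylation in the endosperm. The FIS2 window 665 nt upstream had 41.9% in endosperm (117 calls) and 95.9% in embryo (194 calls), with CHG methylation of 15.0% in endosperm and 54.4% in embryo. The MEA window 399 nt downstream had 44.2% in endosperm and 88.8% in embryo, and the FIE window 949 nt upstream had 54.0% and 93.8%. At PHE1, a MADS-box gene expressed from the paternal allele, the window 1157 nt downstream had 28.1% in endosperm (32 calls) and 95.8% in embryo (96 calls), and 6 of its 11 CG windows were called lower. MPC, which encodes a poly(A)-binding protein-like factor, had 12 of 48 calls methylated in endosperm and 81 of 85 in embryo in an untranslated exon. No CG window of MSI1 or SWN was called, though 1 CHH window of SWN was called higher. The highest-ranked CG windows had 3.70% in endosperm and 0% in embryo at MSI1, and 2.13% and 11% at SWN.

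Of 14 type I MADS-box genes, a family active in the endosperm, 7 had a CG window called lower (list median -5.64 points). PHE1 is among them and was also counted above. AGL36 had 22.2% in endosperm and 87.1% in embryo at 190 nt downstream, and 4 of its 24 CHH windows were called lower too. AGL90, with 6 of 8 CG windows called, had 16.1% in endosperm and 76.5% in embryo at 631 nt upstream. AGL35 (AT5G26630) had 8 of 16 windows called lower, at best 25.9% in endosperm and 90.5% in embryo. AGL28 had 41.7% in endosperm and 93.3% in embryo in CG at a window where CHH methylation was higher in endosperm, at 18.7% against 6.30%. AGL62, needed to delay endosperm cellularization, had 1 of its 9 windows called lower and 1 called higher. The higher one was 1885 nt downstream and had 9 of 15 calls methylated in endosperm and 0 of 21 in embryo. A count of 0 in 21 calls allows up to 15.5% by the Wilson interval, and the call was lost when the embryo calls were thinned, with the difference at 60.0 points both ways. AGL80 had 0 of 17 calls in endosperm and 52 of 109 in embryo at 346 nt downstream. AGL92 and AGL23 had no CG window called, with at best 0% in endosperm and 34.8% in embryo at AGL92 and 56.2% and 84.0% at AGL23. AGL92 had 1 CHG window called lower, and AGL23 had 1 CHH window called higher.

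Of the 4 demethylase genes, 2 had a CG window called lower and 1 of them also one called higher (list median -1.02 points). Over all protein-coding genes the shares were 26.3% with a lower and 3.47% with a higher window. DME, the glycosylase gene of the central cell, had 1 window called higher and 1 lower of 29. The higher one, in a coding exon and intron, had 78.9% in endosperm (19 calls, 56.7 to 91.5) and 25.7% in embryo (70 calls, 16.9 to 37.0), and the call was lost with the embryo thinned. ROS1 (AT2G36490) had 53.6% in endosperm and 92.3% in embryo at 1 window of 33, also lost when thinned. DML2 and DML3 had no CG window called, though DML2 had 1 CHG window and 1 CHH window called lower. At DML2 the window chosen had 1.59% in endosperm and 0% in embryo. At DML3 the smallest p was at a window with 40.0% in endosperm and 68.2% in embryo (Fisher's exact adjusted p = 0.159).

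Genes that maintain or set methylation were measured by the same rule. Of 12 maintenance genes, 7 had a loss (list median -4.67 points). MET1 had 23.1% in endosperm and 87.5% in embryo at 414 nt upstream. SUVH5, a histone methyltransferase gene of the CHG pathway, had 33.3% in endosperm and 99% in embryo at 274 nt upstream. At the histone demethylase gene IBM1, in an untranslated exon and intron, it was 18.8% in endosperm (16 calls) and 92.9% in embryo. VIM1, a reader of hemimethylated CG, had 56.2% in endosperm and 98.1% in embryo, and VIM3 had 20.0% and 64.2%. VIM2 and VIM4 shared 1 window, with 11.4% in endosperm and 73.3% in embryo. Genes of the VIM family resemble each other, and how reads of such copies were split was not tested.

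Of 19 genes of RNA-directed DNA methylation, 11 had a CG window called lower (list median -3.38 points). DRD1, a remodeler needed for Pol V transcription, had 23.1% in endosperm and 97.0% in embryo at 180 nt upstream. NRPE1 (AT2G40030), the largest subunit of Pol V, had 35.2% in endosperm (105 calls) and 94.0% in embryo (134 calls) at 160 nt upstream. SUVH9, which recruits Pol V, had 31.3% in endosperm and 94.1% in embryo at 197 nt upstream, and CHH methylation of 2.36% and 16.6%. NRPD1A, the largest subunit of Pol IV, had 41.1% in endosperm and 95.4% in embryo. The window of AGO9, an Argonaute of the germ line, was called lower in each context, with 9.52% in endosperm and 55.3% in embryo in CG, 0% and 44.8% in CHG, and 2.75% and 40.7% in CHH. At CLSY1 (AT3G42670), a remodeler that acts with Pol IV, the contexts went apart at 1372 nt upstream, with CG methylation of 39.6% in endosperm and 91.8% in embryo and CHH methylation of 64.2% in endosperm (408 calls) and 18.1% in embryo (387 calls). DMS3 had 57.7% in endosperm and 100% in embryo, and RDR2 had 31.6% and 96.8%. Of the 24 CG windows of RDR2, 6 were called lower and 2 higher. DCL3 had 54.5% in endosperm and 90.1% in embryo. NRPD2A had 16.0% and 56.9%, and RDM1 had 0% and 52.3%, both lost when the embryo was thinned. DRM1 had no CG window called, with 60.0% in endosperm (15 calls) and 28.3% in embryo at best. Its called windows were 1 in CHG and 2 in CHH, all lower in endosperm.

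Other loci with losses included YUC10, a gene of auxin synthesis, with 14 of 21 CG windows called lower, the most of any gene in the lists, and 44.1% in endosperm against 98.9% in embryo at 1323 nt downstream. TAR1, the other auxin gene, had none. Of 5 seed size genes, 3 had a loss (list median -1.95 points). IKU1 had 28.3% in endosperm and 93.9% in embryo. MINI3 (AT1G55600), a WRKY factor that acts with IKU genes in endosperm growth, had 11.1% in endosperm (18 calls) and 95.6% in embryo (114 calls) at 1107 nt upstream. SHB1 had 0% in endosperm (19 calls) and 42.6% in embryo, lost when thinned. Silent loci showed the same direction. SDC, held silent by non-CG methylation of its promoter repeats, had 26.3% in endosperm and 97.8% in embryo at 62 nt upstream. QQS had 30.8% in endosperm and 95.2% in embryo, and ALN had 37.2% and 90.0%.

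Among 12 candidate genes of the study for imprinting that differs between alleles, chosen there from maternal and paternal mRNA reads of crosses, 6 had a CG window called lower (list median -4.12 points). ATRX, a chromatin remodeler gene, had 32.0% in endosperm and 92.9% in embryo at 377 nt upstream, and CHG methylation there was 11.8% and 56.7%. AT4G00750 had 0 of 16 calls methylated in endosperm and 41 of 47 in embryo in a coding exon. AT2G25560 had 13.3% in endosperm (15 calls) and 95.0% in embryo (20 calls) at 52 nt upstream. AT3G14205 had 45.3% and 88.7%, and HDG3 and SUVH9 are given above. AT5G60760, with 61.1% in endosperm and 90.4% in embryo, missed the limit of 35 points. AT1G26620 had 66.7% in endosperm and 90.2% in embryo, and ARF6 had 53.3% and 82.5%, neither called. VIN3, AT3G06130 and AT2G34890 had at most 4.0% in either tissue at the window chosen. Of 7 further loci that the study examined, 5 had a CG window called lower (list median -13.3 points). Among these, HDG9, PHE1, YUC10 and VIM1 were already counted in the lists above. B160 had 55.6% in endosperm and 94.7% in embryo and was called, while AT5G17165 had 72.6% and 97.5% and was not.

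The deepest CG losses upstream of genes, among windows with 50 or more calls in both libraries, came from 705 genes. They led with RCD1, with 7.58% in endosperm (3.28 to 16.5) and 95.5% in embryo (87.6 to 98.5, Fisher's exact adjusted p = 2.22e-24). CF9 followed with 10.2% in endosperm and 91.4% in embryo at 403 nt upstream. The window of PAP5, a purple acid phosphatase gene, which reaches into the gene, had 16.4% in endosperm and 96.4% in embryo. TOPP3 and its neighbour AT1G64050 share a window, and so do AT1G10780 and AT1G10790, where it was 15.7% in endosperm and 89.8% in embryo. LBD5, a LOB-domain factor gene, had 19.0% in endosperm and 94.4% in embryo. ACP3, an acyl carrier protein gene, had 17.2% in endosperm and 92.2% in embryo, and the receptor-like protein gene RLP46 had 13.0% and 86.9%. At PAP5 the Cvi tissues had 13.6% in endosperm (44 calls) and 95.7% in embryo (70 calls), and at RLP46 they had 14.7% and 91.2%. At the window of AT1G10780 and AT1G10790 both Cvi tissues had 0%, with 17 calls in endosperm and 8 in embryo.

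The largest CHG fall was in an untranslated exon of FOLB3, a gene of folate synthesis, with 7 of 58 calls methylated in endosperm and 61 of 65 in embryo. PRSL1 had 1.92% in endosperm and 80.7% in embryo in CHG, and CHH methylation there was 4.11% and 8.73%. AT5G27810 had 4.84% in endosperm and 77.3% in embryo, BAT1 had 13.0% and 84.0%, and AT1G26240 had 14.8% and 83.3%. The largest CHH falls were upstream of AT5G22600, with 2.25% in endosperm (89 calls) and 79.8% in embryo (208 calls), and upstream of AT2G34000, with 1.82% and 78.5%. The potassium channel gene KCO5 had 7.06% in endosperm (524 calls) and 80% in embryo (50 calls) at 77 nt upstream. VPS11 had 12.3% in endosperm and 80.5% in embryo, and AT5G19172 had 1.14% and 69.2%.

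Only 6 genes qualified for the largest CG rises. AT3G20820 had 94.9% in endosperm (59 calls) and 33.0% in embryo (115 calls) at 492 nt upstream, and the Cvi x Ler endosperm had 92.6% there (27 calls). AT4G11211 had 94.2% in endosperm and 39.1% in embryo at 606 nt upstream, against 2.27% in Cvi x Ler endosperm. Within genes, AT2G03780 had 83.9% in endosperm and 40.8% in embryo, AT4G01130 had 75.4% and 35.4%, and AT4G30570 had 40 of 62 calls in endosperm and 15 of 60 in embryo.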

How the data were processed

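Endosperm and embryo of Ler x Ler seeds were profiled by bisulfite sequencing, 1 library each. Per the study's methods, the authors mapped Ler reads with Bismark (version not given in the sources used here) to the Ler-0 genome, converted positions to TAIR10, removed redundant reads and summed cytosines with at least 5 reads in 300 nt windows that overlap by 100 nt. The deposited weighted files hold a count of unmethylated and a count of methylated calls per window, with their percent. The deposited window mean files hold a percent and served as an alternative. Calls in overlapping windows are counted more than once. The intervals and tests treat calls as independent. Window sequences and genes came from RefSeq TAIR10.1, whose chromosome lengths fit the windows.

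Levels are unweighted means of window percentages. Windows tested held at least 3 reference cytosines (10 in CHH), in place of the study's informative cytosines, so they are not its exact set. Fisher's exact test (two-sided) was adjusted by Benjamini-Hochberg within a context. The Ler and Cvi contrasts were compared by a Wald test of log odds ratios with 0.5 added to each count. A window overlapping several features was given to the first of protein-coding gene, pseudogene, non-coding RNA gene and none. Centromeres are the midpoints of the longest internal runs of unknown bases. Transposon annotation was not used here, so any transposon genes that RefSeq labels pseudogenes were counted with the pseudogenes. Named genes are list members with a called window (all members of 4 lists), the 10 largest CG falls upstream and the 5 largest CG rises, CHG falls and CHH falls, at 50 or more calls for all but the list members. List genes carry their usual names, with the locus where RefSeq differs. Members and lists were chosen with earlier results of these data known. Scripts ran in Python 3.11.15 with SciPy 1.17.1 and were tested on simulated data.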

Additional observations from a re-analysis of the deposited data

Results flagged for a closer look

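The contrast of endosperm with embryo differed between Ler and Cvi, by the test of the difference itself, at 160 of 108337 CG windows. That test has little power where methylated calls are few, so the other windows are not shown to be alike. At 35 the difference, endosperm minus embryo, was lower in Ler than in Cvi, with means of 27.9% in Ler endosperm and 84.1% in Ler embryo and of 42.7% in Cvi endosperm and 32.1% in Cvi embryo. At 125 it was higher in Ler than in Cvi, with 54.8% in Ler endosperm and 37.7% in Ler embryo and 18.6% in Cvi endosperm and 75.4% in Cvi embryo. The mean was thus higher in endosperm than in embryo in Cvi at the 35 and in Ler at the 125. Both embryos were at 50% or more in 10 of the 35 and in 35 of the 125.

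Chloroplast calls, which enter none of the window calls, read as methylated above the limit that a count of 0 allows. In CG the share was 0.176% in endosperm and 0.0432% in embryo, in CHG 0.179% in endosperm and 0.0504% in embryo, and in CHH 0.217% in endosperm and 0.150% in embryo.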

How the results depend on the processing

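The endosperm mean was below the embryo mean in each context under all the alternatives tried. Requiring 30 calls gave 6295 CG windows lower and 77 higher, 2713 CHG windows lower and 1 higher, and mean differences of -5.48 points in CG and -3.19 in CHG. Requiring 100 calls in CHH gave 494 windows higher and a mean of -0.667. A difference of 50 points gave 7005 and 249 in CG and 1673 and 1 in CHG, and 20 points gave 2857 and 165 in CHH. An adjusted p under 0.001 gave 285 CG windows higher, 2644 CHG lower and 5 higher, and 480 CHH higher. Every second window, which do not overlap, gave 6347 and 276 in CG, 2238 and 5 in CHG, and 3511 and 379 in CHH. With the embryo calls thinned, 254 CG, 1 CHG and 365 CHH windows were higher and 2498 CHG windows lower. Beyond 3 Mb of a centromere 6150 CG, 1493 CHG and 3995 CHH windows were lower, 5 CHG and 288 CHH windows were higher, and the means were -3.00, -1.08 and -0.368. The CG, CHG and CHH means were -5.53, -3.18 and -0.431 over all windows present in both libraries, -4.72, -2.83 and -0.381 as sums of calls, and -5.22, -3.24 and -0.600 with the chloroplast percent subtracted, an alternative chosen after seeing the data. Over each library's own windows they were -6.97 in CG and -3.88 in CHG, and the deposited window means gave -0.556 in CHH. Fewer windows or calls enter several of these by construction, and for the rest the cause was not tested. Of 83 named windows in the 3 contexts, 7 lost the call when thinned and 4 at the stricter p, and of 78 in CG and CHG 17 lost it at 50 points, among them HDG8, MEA, FIE, VIM1, DCL3, DMS3, AT3G14205 and B160. No paired analysis was possible because each tissue has 1 library.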
